A study of Homo sapiens with 2 samples.

Results

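HLA class I heavy chains and the proteins that load them with peptide were followed in PC3 cells, a human line established from a prostate cancer metastasis, after fluphenazine or its solvent. The set holds 9 genes of the 18392 measured, chosen by name: HLA-B, HLA-C, HLA-E, HLA-F, HLA-G, B2M, TAP1, TAP2 and TAPBP. They were read by 28 probe sets of the 47693 in the table, and 22 of these lay above an expression floor of 6.19 on the log2 scale, the median over genes of the higher of a gene's 2 values. No probe set used here named one of the 9 genes together with another gene. Other class I genes were not analysed here.

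The series compared PC3 cells given DMSO with PC3 cells given 10 µM fluphenazine, a phenothiazine antipsychotic, with 1 array per treatment. Both cultures were the same line grown in serum-containing medium, and the sources used here do not give the time of treatment. A difference below is the fluphenazine value less the DMSO value, in log2 signal. No value has an error between cultures and none was tested, and an array of a whole culture cannot tell fewer expressing cells from less RNA per cell.

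Class I molecules display fragments of intracellular proteins to CD8 T cells and natural killer cells. A heavy chain pairs with the light chain beta-2-microglobulin in the endoplasmic reticulum. There the TAP1 and TAP2 transporter imports peptides from the cytosol, and tapasin holds the empty class I molecule beside it. Interferons, through interferon-stimulated response elements, and NF-kB are known to raise these genes in many cell types, and tumours often lose part of this machinery.

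Of the 9 genes, 7 were lower with fluphenazine, with log2 differences from -0.22 to -0.10, while B2M and TAP2 differed by 0.00. All 5 HLA heavy chain genes were among the 7, together with TAP1 and TAPBP. The median over the 9 genes was -0.18, beside -0.01 over all 9196 genes above the floor, of which 51.8% were lower by any amount. The probe sets behind the 5 HLA values may share signal, as described below, so these may not be 5 separate readings. Over the 4 other members the median was -0.07, with TAP1 and TAPBP lower and B2M and TAP2 at 0.00. None of the 9 genes was lower or higher by at least 1.2-fold, the size taken here as a called difference (0.26 on the log2 scale). Over all genes above the floor 4.69% were lower and 4.84% higher by that size. For scale, where a gene had several probe sets above the floor, as 3668 genes did, their differences varied around the gene's mean with a pooled SD of 0.13. By their brightest probe sets all of the 7 but HLA-B differed by more than that. With the mean of all probe sets of a gene, those under the floor included, only HLA-B (-0.19), HLA-E (-0.14) and TAP1 (-0.19) did. By that mean HLA-C was at -0.12, TAPBP at -0.10, and HLA-F and HLA-G at -0.03 each. The median over the members was then -0.12, and it was -0.11 over the 8 genes left above the floor when each gene took the median of its probe sets. The pooled SD describes the arrays and holds no variation between cultures, and the 1.2-fold size was set from such a spread in these arrays.

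**Figure D1:**
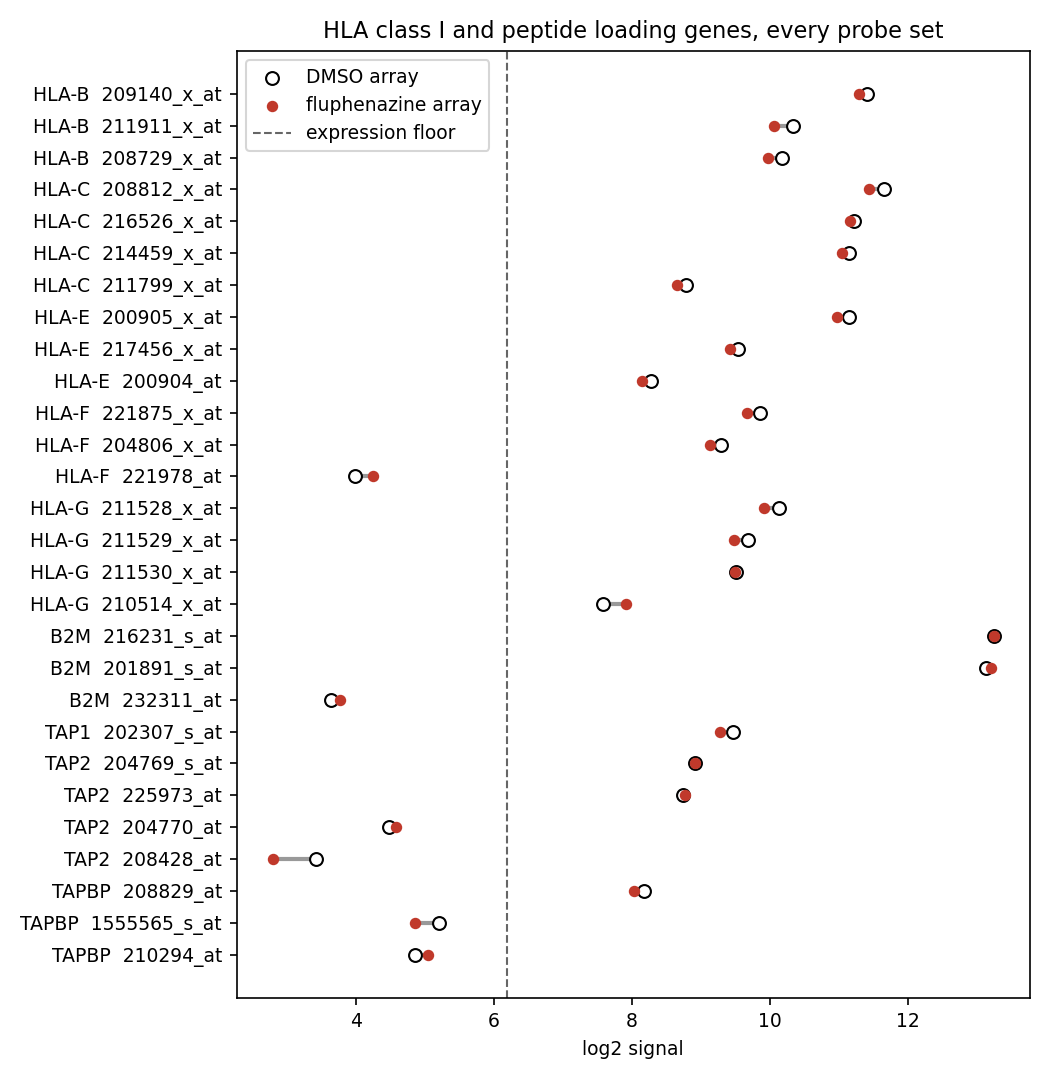
Log2 signal (x axis) of each of the 28 probe sets of the 9 genes (rows), with an open circle for the DMSO array and a filled one for the fluphenazine array. The dashed line is the floor of 6.19; the filled circle lies left of the open one for every HLA-B, HLA-C and HLA-E probe set, and both circles coincide at 13.25 for the brighter B2M probe set.

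HLA-B and HLA-C encode classical heavy chains, which present peptides to CD8 T cells and serve as ligands of killer-cell receptors. The brightest HLA-B probe set read 11.40 with DMSO and 11.30 with fluphenazine, a difference of -0.10. The second read 10.34 and 10.07, or 1.21-fold lower, and was the one member probe set above the floor that was lower by at least 1.2-fold. The third read 10.18 and 9.97, a difference of -0.20. All HLA-B probe sets thus lay lower on the fluphenazine array, and the largest and smallest of their differences lay further apart than the pooled SD.

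HLA-C was read by 4 probe sets. The brightest went from 11.65 with DMSO to 11.45 with fluphenazine (-0.21). The next read 11.22 and 11.17 (-0.05), and the third 11.16 and 11.04 (-0.11). All lay on the lower side, as did the dimmest, at 8.78 and 8.66 (-0.12). Over the 7 probe sets of the classical heavy chains the median difference was -0.12.

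The non-classical heavy chains have narrower roles. HLA-E presents leader peptides of other class I chains to the NKG2A receptor of natural killer cells, and its 3 probe sets read 11.15 against 10.98, 9.54 against 9.42 and 8.28 against 8.14, DMSO first. All were lower with fluphenazine, by differences of -0.18, -0.12 and -0.13. The dimmest of the 3 is the only HLA probe set above the floor whose identifier carries no cross-hybridization suffix.

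HLA-F can reach the surface as a heavy chain without peptide. Its 2 probe sets above the floor read 9.86 and 9.29 with DMSO and 9.67 and 9.13 with fluphenazine, differences of -0.19 and -0.16. The dimmest, under the floor, went the other way, from 3.99 to 4.24. HLA-F-AS1, the antisense gene at that locus, was at 6.86 with DMSO and 7.01 with fluphenazine. Which strand the probes read is not stated in the labels. The labelling kit they name is made for whole-transcript arrays, whereas these probe sets belong to an array read near transcript ends, and how the kit was used with it is not stated, so which strand and part of a transcript each value reads is uncertain.

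HLA-G, known as the class I chain of the placental trophoblast, showed the widest spread of any member above the floor. The brightest of its 4 probe sets read 10.13 with DMSO and 9.91 with fluphenazine (-0.22), and the next 9.69 and 9.49 (-0.20). The third read 9.51 and 9.50 (-0.02). The fourth read 7.58 with DMSO and 7.91 with fluphenazine, a difference of 0.33 or 1.26-fold, and was the one member probe set above the floor that was higher by at least 1.2-fold. The probe sets of HLA-G therefore disagreed in direction, and their mean difference was -0.03.

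Of the 16 HLA probe sets above the floor, 15 were lower with fluphenazine, with a median of -0.14. Over all 14662 probe sets above the floor 52.7% were lower. Among the 22 member probe sets above the floor, 1 was lower by at least 1.2-fold and 1 higher, where 5.38% and 4.96% of all probe sets were. The members' share past that size was near that background. Of the 16 HLA probe sets, 15 carry the suffix _x_at, by which the maker marks probe sets with probes that may also bind other transcripts. HLA heavy chains are near-identical over long stretches, so these 15 values share signal to an unknown extent and the gene named by each is uncertain. The HLA-J pseudogene, read by another such probe set, was at 7.59 with DMSO and 7.56 with fluphenazine.

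**Figure D2:**
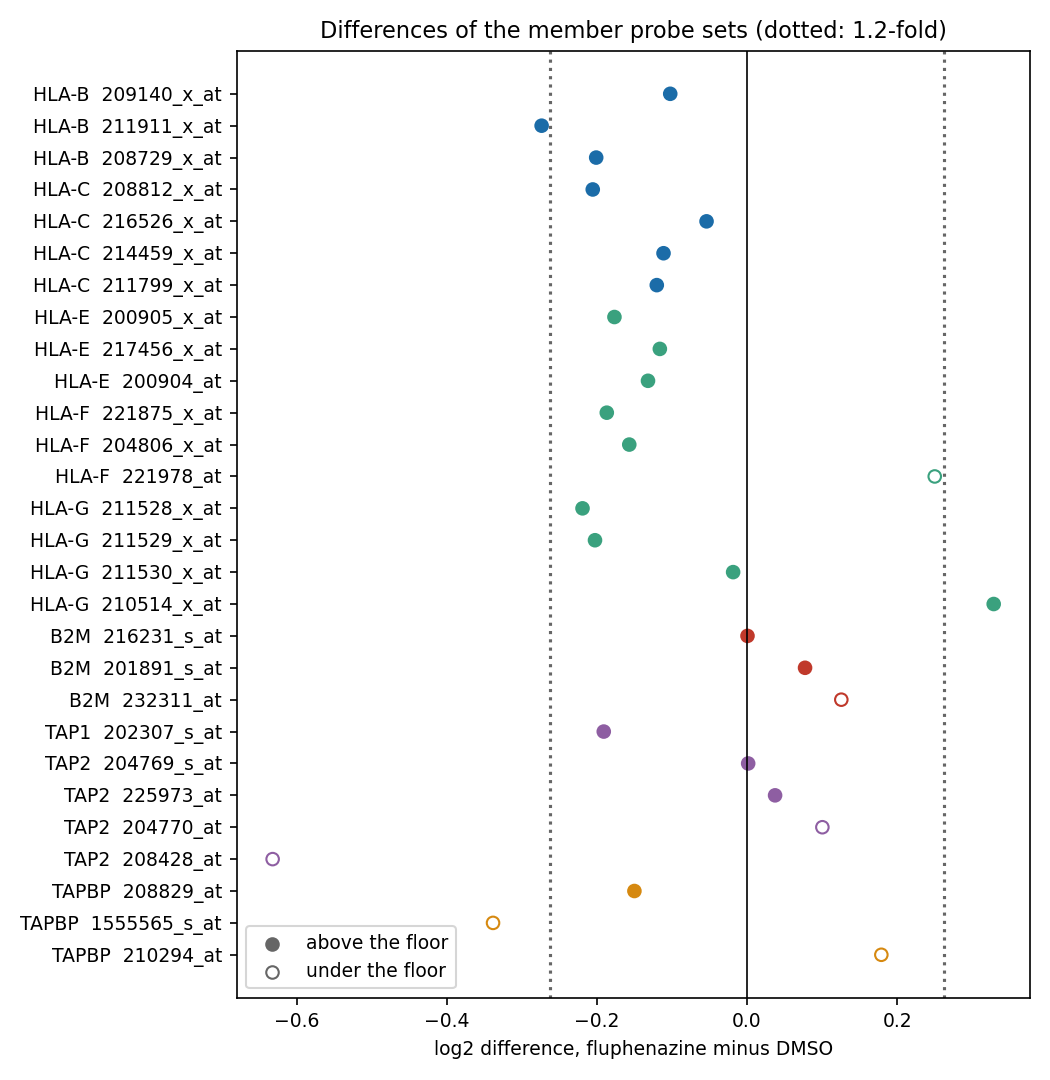
Log2 difference between the arrays (x axis, fluphenazine minus DMSO) for each member probe set (rows), filled above the floor and open under it, coloured by role (classical HLA, non-classical HLA, B2M, TAP, tapasin). Of 16 filled HLA points 15 lie left of 0, 1 HLA-B point lies beyond the left dotted line of 1.2-fold and 1 HLA-G point beyond the right one.

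B2M encodes beta-2-microglobulin, the light chain shared by all class I molecules. Its brightest probe set read 13.25 on both arrays, and the second read 13.13 with DMSO and 13.21 with fluphenazine (0.08). The dimmest, far under the floor, read 3.65 and 3.77. None of the B2M probe sets was lower with fluphenazine, unlike 15 of the 16 HLA probe sets above the floor. Only 57 of the 18392 genes were brighter than B2M by mean signal. Whether signal this high can show so small a difference was not tested.

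TAP1 and TAP2 form the peptide transporter as a pair. TAP1, with a single probe set, read 9.47 with DMSO and 9.28 with fluphenazine, a difference of -0.19 or 1.14-fold lower. TAP2 read 8.92 on both arrays by its brightest probe set, and 8.74 and 8.78 by the second. Of the pair, TAP1 was lower by more than the pooled SD and TAP2 was level. Under the floor, 1 TAP2 probe set read 4.48 and 4.58, and another 3.43 and 2.80. The latter difference of -0.63 was the largest of any member probe set, and both of its values lay far under the floor.

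In the class II region TAP2, PSMB8, TAP1 and PSMB9 are neighbours in that order. PSMB8 and PSMB9 encode inducible proteasome subunits that shape peptides for TAP, and PSMB9 and TAP1 are known to share a bidirectional promoter. PSMB8 read 9.57 with DMSO and 9.33 with fluphenazine (-0.25), and PSMB9 read 9.39 and 9.06 (-0.33). In this row of 4 genes TAP1 and both proteasome genes were lower, and TAP2 was not.

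TAPBP encodes tapasin, which bridges class I molecules to TAP and edits their peptides. The probe set above the floor read 8.18 with DMSO and 8.03 with fluphenazine, a difference of -0.15. Both others were under the floor and disagreed, at 5.20 against 4.86 and 4.86 against 5.04, DMSO first. TAPBP thus rests on 1 probe set.

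The members were then set among genes of at least their own signal. Of 5206 genes at least as bright as TAPBP, the dimmest member by mean signal, 49.0% were lower and the median difference was 0.00. Below the values of HLA-G, HLA-C, TAP1, HLA-F and HLA-E lay 4.96%, 6.05%, 7.32%, 7.57% and 8.80% of these genes. For TAPBP that share was 11.9% and for HLA-B 20.6%. B2M and TAP2 sat in the middle, at 49.3% and 49.5%. These places rest on 1 probe set per gene. With averaged probe sets HLA-G and HLA-F were near 0, at -0.03 each, and TAP2 was at -0.12. HLA-B and TAP1 were then the lowest members, at -0.19 each. The averages of HLA-F and TAP2 take in probe sets under the floor.

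**Figure D3:**
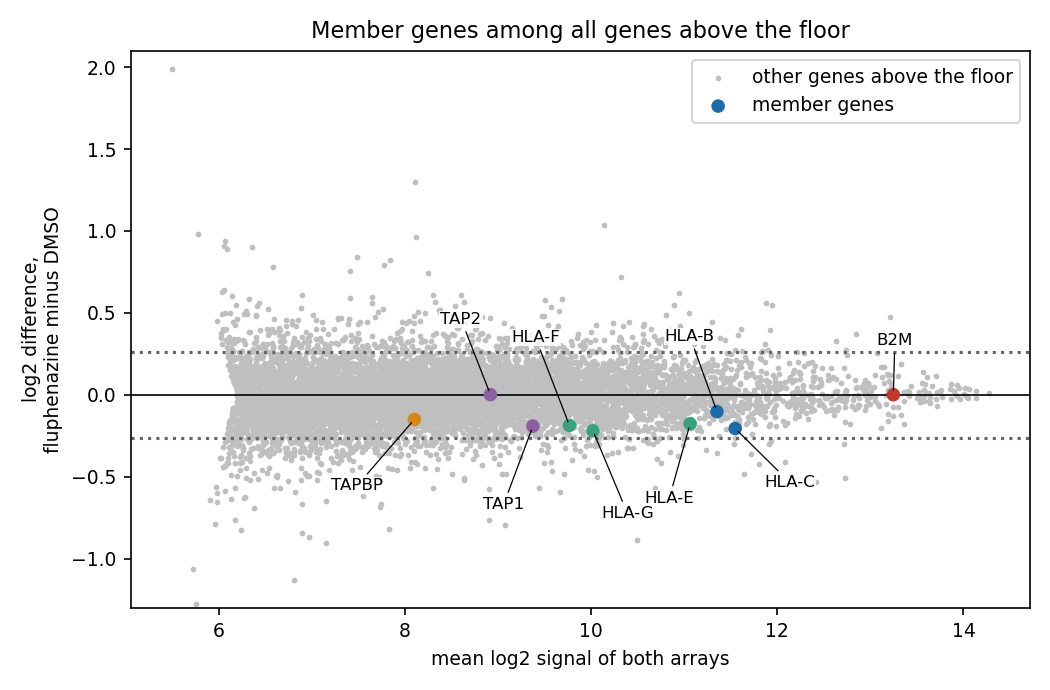
Log2 difference (y axis, fluphenazine minus DMSO) against the mean log2 signal of both arrays (x axis) for all 9196 genes above the floor (grey), with the 9 members coloured by role and named. Dotted lines mark 1.2-fold; all 9 members lie between them, 7 below 0 and B2M and TAP2 at 0.00.

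Promoter sequence is shown because the class I genes are known for a common set of elements there, which can be set beside the members' differences. Windows from 250 bases before to 50 bases after each start site came from RefSeq on GRCh38.p14 and matched 8 of the 9 members, all but HLA-E, with 11 windows in all. The stretches below run 5′ to 3′ on the strand of the gene, before the start site. Capitals mark AANNGAAA, read on both strands, the core of the interferon-stimulated response element in the form that class I promoters share with the standard element; neighbouring matches overlap.
HLA-B, chr6:31357220-31357339, minus strand: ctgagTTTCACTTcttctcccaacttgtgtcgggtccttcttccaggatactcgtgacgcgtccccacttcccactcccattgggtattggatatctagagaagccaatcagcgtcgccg
HLA-C, chr6:31272133-31272252, minus strand: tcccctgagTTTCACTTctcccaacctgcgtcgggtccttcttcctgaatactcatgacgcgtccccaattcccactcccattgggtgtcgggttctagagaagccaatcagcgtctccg
HLA-F, chr6:29723274-29723393, plus strand: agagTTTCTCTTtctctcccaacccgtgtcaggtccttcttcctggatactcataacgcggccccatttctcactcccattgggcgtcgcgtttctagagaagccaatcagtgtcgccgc
HLA-G, chr6:29827665-29827784, plus strand: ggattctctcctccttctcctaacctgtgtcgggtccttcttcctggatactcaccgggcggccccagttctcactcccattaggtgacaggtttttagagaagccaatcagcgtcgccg
B2M, chr15:44711357-44711476, plus strand: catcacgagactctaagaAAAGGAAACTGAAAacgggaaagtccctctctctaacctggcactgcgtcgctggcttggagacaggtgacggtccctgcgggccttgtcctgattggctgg
TAP1, chr6:32853745-32853864, minus strand: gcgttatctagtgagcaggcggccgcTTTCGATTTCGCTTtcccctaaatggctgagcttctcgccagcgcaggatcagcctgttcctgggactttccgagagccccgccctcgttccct
TAP2, chr6:32838740-32838829, minus strand: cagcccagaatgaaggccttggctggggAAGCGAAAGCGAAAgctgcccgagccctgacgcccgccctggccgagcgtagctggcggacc
TAPBP, chr6:33314079-33314168, minus strand: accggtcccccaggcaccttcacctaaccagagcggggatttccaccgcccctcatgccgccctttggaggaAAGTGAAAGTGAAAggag

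The 4 HLA stretches can be read side by side. HLA-B, HLA-C and HLA-F hold 1 match each, at 155, 151 and 156 bases before the start site, on the opposite strand. In the HLA-G stretch, from the most downstream of its 3 start sites, these letters are not present. B2M, TAP1, TAP2 and TAPBP hold 2 overlapping matches each. For TAP1 the stretch is that of its more upstream start site, and the window of its other start site holds none of the motifs searched. In all, 7 of the 11 windows had the core, from 7 of the 8 members, where 22.8% of 35116 promoter windows do. The letters were chosen in the form that class I promoters share, after values were seen, so the members' share is not a test of enrichment. Of the members with the core, B2M and TAP2 were at 0.00, and HLA-B, HLA-C, HLA-F, TAP1 and TAPBP were between -0.21 and -0.10. HLA-G, without it in these windows, was at -0.22 by its brightest probe set and at -0.03 by the mean of its probe sets. That brightest probe set may also bind other HLA transcripts. Whether the core bears on the members' differences was not tested. Over all genes above the floor with a window, 1637 with the core had a median difference of -0.0012 and 50.5% lower, and 6063 without it had -0.0086 and 52.2%.

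Other class I promoter elements were searched in the same windows on both strands. An NF-kB core, GGGANTNNC, was in 6 of the 11 windows, 1 each of HLA-B, HLA-C, HLA-G, B2M, TAP1 and TAPBP, and in 15.4% of all windows. The CCAAT box bound by NF-Y was in 6 of 11 and in 34.6% of all windows. TGACG, the half-site of the element bound by CREB and ATF proteins, was in 4 of 11 and in 24.6% of all windows. HLA-B, HLA-C and B2M hold all 4 motifs. These letters too were chosen as class I promoter elements, so the members' shares are not a test of enrichment. A match is a description of letters and not a site of binding.

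The rest of the pathway was read from 7 lists of genes, with 1 value per gene from its brightest probe set. The inducible proteasome and peptide-trimming list lay closest to the members. Of 12 members measured, all above the floor, 11 were lower with fluphenazine, with a median of -0.16, or -0.10 with averaged probe sets. PSMB9 (-0.33), the leucine aminopeptidase LAP3 (-0.34) and the oligopeptidase THOP1 (-0.46, with its fluphenazine value under the floor) were lower by at least 1.2-fold, 3 of 12 where 4.69% of all genes were. PSMB10, the third inducible proteasome subunit, was at -0.26, just inside that size, and PSMB8 at -0.25. ERAP1, which trims peptides in the endoplasmic reticulum, was the exception at 0.19, from 8.50 to 8.69. ERAP2, its close relative, was at -0.20. Probe sets above the floor disagreed in direction for ERAP2 (-0.20 to 0.09), PSME3 (-0.12 to 0.10), NPEPPS (-0.13 to 0.08) and TPP2 (-0.03 to 0.01). All of these count among the 11 lower genes.

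Chaperones that fold class I chains lay on the other side. Of 5 above the floor, 4 were higher, with a median of 0.09 and none past 1.2-fold by its brightest probe set. That median was 0.02 with averaged probe sets and 0.16 with no floor. The thiol reductase PDIA3, a partner of tapasin, read 12.49 and 12.59, calnexin (CANX) 11.93 and 11.98, and calreticulin (CALR) 10.17 and 10.15. Probe sets above the floor disagreed in direction for PDIA3 (-0.06 to 0.09), CANX (-0.08 to 0.09), CALR (-0.02 to 0.23) and UGGT1 (-0.26 to 0.24). HSPA5, a general chaperone of the endoplasmic reticulum, was at 0.26 by its brightest probe set and at 0.27, past 1.2-fold, by its other one. TAPBPL, a tapasin relative that edits peptides, was under the floor.

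Regulators of class I genes went both ways. Of 11 above the floor, 6 were higher and 5 lower, with a median of 0.04, or 0.07 with averaged probe sets. NLRC5, the coactivator of class I promoters, was under the floor on both arrays, at 4.42 with DMSO and 4.57 with fluphenazine. IRF1 was at 0.04, RELA at 0.09 and NFKB1 at 0.25. By brightest probe sets RFXAP, a subunit of the factor that binds the X box, was the only regulator past 1.2-fold. That is 1 of 11, where 4.84% of all genes were higher by that size. RFXAP was at 0.64, from 5.74 under the floor to 6.38, so it passed the floor on the fluphenazine array alone. Probe sets above the floor disagreed in direction for CREB1 (-0.19 to 0.34), NFYB (-0.09 to 0.10) and NFYA (-0.055 to 0.002). The highest of CREB1 and the lowest of NFYC (-0.263) were past 1.2-fold. The other subunits of the X box factor, RFX5 and RFXANK, were at -0.10 each.

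Interferon receptors and their signalling genes, of which 9 passed the floor, were at a median of 0.03, with 6 higher. The interferon gamma receptor chain IFNGR1 was higher by at least 1.2-fold, from 9.49 to 9.77, 1 of 9 where 4.84% of all genes were. Its partner IFNGR2 was at -0.03. JAK1 was at 0.24, IFNAR1 at -0.07, and IRF9, which binds response elements as part of a trimer, was at 0.04. Probe sets above the floor disagreed in direction for JAK1 (-0.20 to 0.24), IFNAR2 (-0.005 to 0.206) and IFNAR1 (-0.066 to 0.002). JAK2 was at -0.04, with its fluphenazine value just under the floor.

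Class I-like molecules had 5 of 11 measured members above the floor, 4 of them higher, with a median of 0.06, or 0.01 over all 11 with no floor. The stress ligands of the NKG2D receptor MICA, MICB and ULBP2 read 0.11, 0.01 and 0.11. The neonatal Fc receptor chain FCGRT, which also pairs with beta-2-microglobulin, was at -0.08. None of these 5 reached 1.2-fold. In the list of turnover and leader peptide supply, HM13, the protease whose cuts supply leader peptides to HLA-E, was at -0.20 and the ligase MARCHF9 at -0.15, while MARCHF8 was at 0.10. The median over its 4 members past the floor was -0.05, and -0.10 over all 6.

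**Figure D4:**
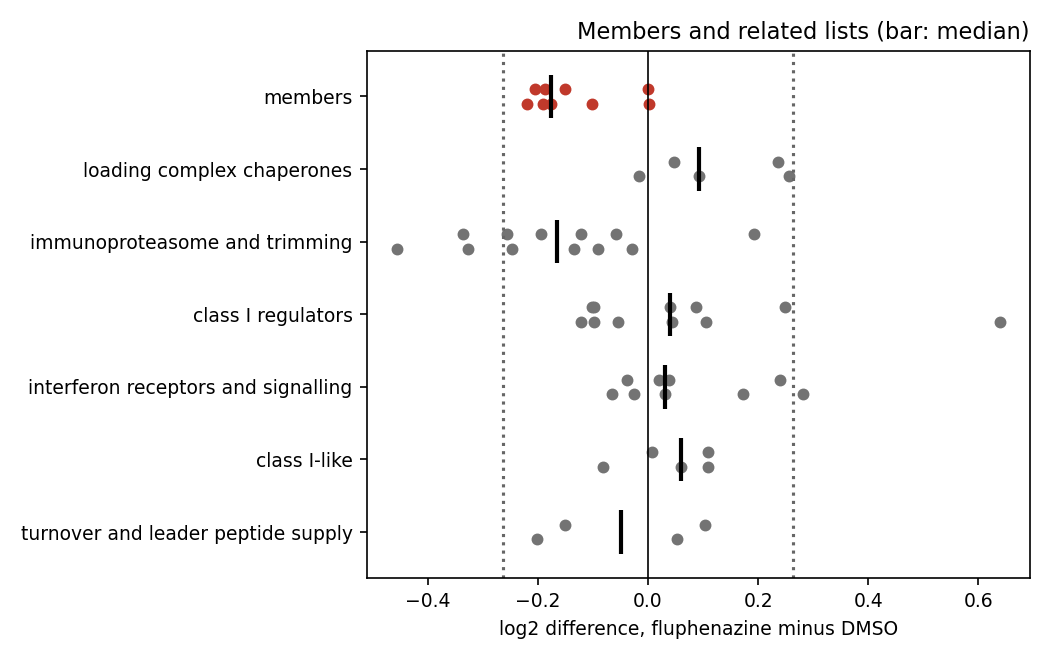
Log2 difference (x axis, fluphenazine minus DMSO) of each gene above the floor in the 9 members (red) and in 6 related lists (grey), with a bar at each median; points are offset vertically for legibility, and dotted lines mark 1.2-fold. The medians are -0.18 for the members and -0.16 for the inducible proteasome and trimming list, and the chaperone list lies at 0.09.

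Class II genes, which professional antigen-presenting cells use, were all under the floor. The 13 listed, among them HLA-DRA, CD74 and the transactivator CIITA, read 3.45 to 5.98 with DMSO and 3.12 to 5.82 with fluphenazine. The 6 lymphocyte and myeloid markers measured, including PTPRC, were also all under it, at no more than 4.57 on either array. The epithelial markers KRT8, KRT18, KRT19, EPCAM and CDH1 were all above the floor, at 9.70 or more with DMSO. KRT8 was lower by at least 1.2-fold, at 9.70 with DMSO and 9.28 with fluphenazine (-0.42), a larger difference than that of any member gene. That is 1 of 5 epithelial markers, where 4.69% of all genes were lower by that size. KRT8 rests on 1 probe set, which carries the suffix _x_at. KRT18 was at -0.13, KRT19 at -0.08, EPCAM at 0.07 and CDH1 at 0.10, and the part of these markers in the members' values was not tested. Of the endothelial and fibroblast markers only PECAM1 (-0.27) and COL1A1 (0.00) were above the floor. PECAM1 was lower by at least 1.2-fold, and its 3 probe sets above the floor ran from -0.55 to -0.27. The 2 of COL1A1 ran from -0.18 to 0.00. Of 3 prostate luminal markers measured, KLK3 (-0.03) and TMPRSS2 (0.12) were above the floor and KLK2 was under it.

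The bacterial spike-in transcripts were lower on the fluphenazine array at all 24 of their probe sets, with differences from -0.37 to -0.06 and a median of -0.22, a size like that of the HLA differences. Over the 9196 genes above the floor the median was -0.01. The part of the spike-in difference in the members' values was not tested.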

How the data were processed

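RNA of PC3 cells was measured on 2 arrays, 1 per treatment. The values in the authors' deposited table were read as log2 signals, since they run from 1.60 to 14.28. The submitters' processing notes name RMA, Transcriptome Analysis Console 3.1 and Affymetrix Expression Console 1.4, without saying what each was used for. Such values show a gene relative to the other genes of its array. Background correction could not be varied. The number of arrays limits the precision, and no test was possible.

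Probe sets were named from a platform annotation of 2016, with symbols updated through the gene identifier. Those naming 1 gene were used, and control probe sets were left out. A gene took its probe set with the highest mean of both arrays. The floor, and a call at 1.2-fold, applied to genes and to probe sets. That size is about 2 times the spread between probe sets of a gene, seen in an earlier pass over these arrays. The comparison with bright genes and the motif letters were chosen after values were seen. The members and lists were chosen with earlier results of these data known. All members were named with all their probe sets, and from each list the members past 1.2-fold, those at its ends or those described by role. The planned summary of probe sets naming several HLA genes had no probe set to use. Some list members are not analysed here. Alternatives were 3 scalings, 2 floors, 2 fold thresholds, 2 other summaries per gene, leaving out the most extreme member, and leaving out probe sets with the suffix _s_at or _x_at. The counting was tested on simulated data. Python 3.11.15, numpy 2.4.6, pandas 2.3.3 and matplotlib 3.10.9 were used.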

Additional observations from a re-analysis of the deposited data

How the results depend on the processing

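Under every alternative run, the median over the member genes kept its direction, from -0.19 to -0.11, and so did that over their probe sets, from -0.13 to -0.12. The count of member probe sets lower by at least 1.2-fold, 1 as reported, was 3 with no floor, 0 at 1.5-fold, 0 at 2-fold and 0 without the suffixes _s_at and _x_at, which left 3 probe sets. The count of member genes lower by that size, 0 as reported, was 1, HLA-B, with the median of a gene's probe sets on each array, over the 8 genes then above the floor. The list medians kept their direction under the alternatives run. With averaged probe sets, those under the floor included, HLA-F and HLA-G were at -0.03 each and TAP2 at -0.12. For HLA-F the higher probe set was under the floor, and its 2 above the floor were at -0.19 and -0.16. For HLA-G the higher probe set was above the floor, at 0.33. TAP2 moved through its dimmest probe set, under the floor. The 3 other scalings moved no member's difference by more than 0.015, and TAP2, at 0.00, changed sign under quantile normalization. All 3 rest on the bulk of the array, where the treatments were already alike, so they could move little. The median over all probe sets was 4.74 with DMSO and 4.73 with fluphenazine. A scaling to the spike-in transcripts, lower on the fluphenazine array at a median of -0.22, was not run. Counting probe sets that name several HLA genes was not run, since none names a member. No paired analysis was possible because each treatment had 1 array.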
